A study of Mus musculus with 6 samples.

Results

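Transcript levels of heat shock proteins, chaperonins and their co-chaperones were read in myospheres, sphere-forming cultures of mouse muscle cells. The members were probe sets annotated with 1 gene symbol that begins as Hspa, Hspb, Hspc, Hspd, Hspe or Hsph and a digit, as Hsp90a, or as Dnaja, Dnajb, Dnajc, Bag, Hsf or Cct and a digit. Hspa5, Dnajb9, Dnajb11 and Dnajc3, which act in the endoplasmic reticulum, were left out. The names gave 84 of 18193 measured genes, read by 142 of 20380 single-gene probe sets on the chip MOE430A and 56 of 14661 on MOE430B. This naming rule was set with earlier results of these data known, so the shares of members below are descriptions and not tests. Because the rule goes by name, the set also holds chaperones outside the cytosol. Hspd1, Hspe1, Hspa9 and Dnaja3 belong to mitochondria, and Hspa13, Dnajc1 and Dnajc10 to the endoplasmic reticulum. Hspb11 is a subunit of the intraflagellar transport machinery and Hsf2bp a binding partner of Hsf2. Hsp90ab1 and Hsf1, the main constitutive Hsp90 gene and the main activator of the heat shock response, were not analysed here.

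The cells came from hind-leg muscle of male Balb/c mice, sorted for the surface antigen Sca1, and carried no stated transgene or treatment. Per the labels they spent 4 days in a neural stem cell medium (neurocult, to which EGF, B27, LIF and bf6f, an additive named only so, were given), and RNA was taken at passage 1 from 2000000 cells. There was a single group: replicates 1 to 3, each on an Affymetrix MOE430A and an MOE430B array, 6 arrays in all. All arrays carry the same submitter sample number, and nothing says that the replicates were separate cultures or how many mice were pooled, so every p-value below measures only the spread between these arrays, which may be technical. No unstressed or heat-shocked group exists, so a level here cannot be called induced or basal.

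Chaperones bind unfolded protein chains and help them fold, refold or be degraded. Hsp70 proteins hold short hydrophobic stretches in an ATP cycle that J proteins (the Dnaj genes) start and that Hsp110 and Bag proteins end by nucleotide exchange. Hsp90 finishes kinases and hormone receptors, the ring-shaped chaperonin CCT folds actin and tubulin, and small heat shock proteins keep unfolded chains from aggregating without ATP. Heat shock factors switch many of these genes on by binding repeats of the unit nGAAn in their promoters.

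A level is a MAS5 signal, a linear intensity that the authors scaled to the same trimmed mean on every array (1500 to 1501). Levels were read against a background limit set on each array at the 95th percentile of probe sets for genes of other tissues, such as odorant receptors and keratin-associated proteins. For replicates 1, 2 and 3 the MOE430A limits were 820.2, 785.4 and 822.1, and the MOE430B limits 3237, 2929 and 2542. On the 100 probe sets that both chips carry, none of them a member, the log2 signal was higher on MOE430B by 1.86 in the median (99 of 100 past the threshold, limma), so each level stands only against the limit of its own array. A probe set is called above when it passed the limit on all 3 arrays, and a gene when any of its probe sets did. In addition limma tested log2(signal / limit) against 0 over all probe sets of a chip, and with an adjusted p of 0.05 or more a level is given as not told apart from the limit. Affinity varies from probe set to probe set, so levels do not rank genes by amount of transcript. Where genes are ordered below, the order is by ratio to the limit and describes their probe sets only. Over probe sets, which are not independent replicates, the log2 signals of any 2 replicates had a correlation of 0.914 to 0.921 on MOE430A and of 0.741 to 0.765 on MOE430B. The control sets at the 3' end of Gapdh and actin read 8.55 to 16.5 times those at the 5' end, and the part of this in probe sets that read low was not tested. Of the marker genes, Pdgfra, Dcn, Col3a1 and Cd34 of fibro-adipogenic progenitors were above the limit (4 of 4), against 0 of 4 myogenic regulators (Pax7 and Myf5 below by limma; Myod1 at 1.12 and Myog at 1.46 times the limit, each above on 2 arrays and not told apart), 0 of 3 genes of differentiated muscle (Acta1, Ckm, Myh3), 1 of 3 endothelial genes (Kdr, 2.27 times the limit) and 1 of 3 leukocyte genes (Csf1r, 3.63 times). The gene of the sorting antigen Sca1 was not analysed here. In such bulk RNA, fewer cells of a type and less RNA per cell cannot be told apart, and the part of admixed cells in the levels below was not tested.

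Of the 84 chaperone genes, 49 (58.3%) were above the limit, beside 36.1% of all genes. On MOE430A, 76 of 142 member probe sets (53.5%) were above on all arrays, beside 35.5% of single-gene and 35.1% of all probe sets. On MOE430B these were 13 of 56 (23.2%), beside 13.5% and 10.1%. The median log2(signal / limit) of member probe sets was 0.28 on MOE430A and -1.35 on MOE430B, and that of all single-gene probe sets -0.51 and -1.67. With limma, 69 member probe sets were above on MOE430A (48.6%, beside 32.9%), 43 below (30.3%, beside 47.1%) and 30 not told apart. On MOE430B, 10 were above (17.9%, beside 11.8%) and 35 below (62.5%, beside 68.2%).

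The share above the limit was larger for genes with more probe sets, among members and among all genes. Among chaperone genes with 1 probe set 13 of 32 were above (40.6%, beside 22.1% of all such genes), with 2 it was 10 of 20 (beside 42.3%), and with 3 or more 26 of 32 (81.2%, beside 59.1%). Probe sets of shared sequence, whose IDs end in _a_at, _s_at or _x_at, were above more often on MOE430A, for 36 of 54 members (66.7%, beside 44.3% of all such sets), than the others, for 40 of 88 (45.5%, beside 31.6%). Without them 40 of 77 chaperone genes were above. The count on MOE430B depends on where the limit lies: 7 of 56 with the 99th percentile and 29 of 56 with the array median.

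**Figure D1:**
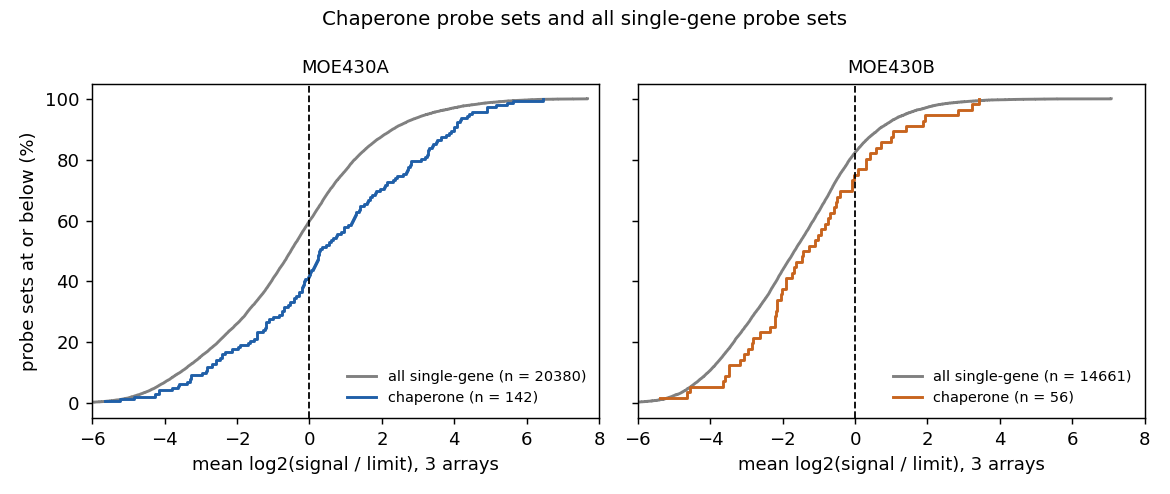
Cumulative share of probe sets (vertical axis, %) by mean log2(signal / limit) over 3 arrays (horizontal axis), for chaperone members (coloured) and all single-gene probe sets (grey), on MOE430A (left) and MOE430B (right). The dashed line is the limit; the member curve lies to the right of the grey one at their medians, 0.28 against -0.51 and -1.35 against -1.67.

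Hsp90aa1, the stress-inducible cytosolic Hsp90, was far above background. Its probe set with the highest ratio to the limit read 15622, 15140 and 19447 in replicates 1, 2 and 3, a mean of 20.7 times the limit (limma, adjusted p = 5.33e-08). The other MOE430A probe sets of the gene read 12412, 13885 and 12093, and 5263, 5412 and 4889, so all 3 on this chip were above on every array. Both MOE430B probe sets of Hsp90aa1 were below their limit, at 0.577 and 0.223 of it.

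Among Hsp70 genes, 6 of 10 were above the limit, beside 36.1% of all genes. Hspa8, the constitutive cytosolic Hsc70, read 71991, 71478 and 67999, or 87.2 times the limit (70489 ± 2172, SD, n = 3). Hspa1b, an inducible Hsp70, read 34664, 47253 and 39046, and its neighbour Hspa1a read 4089, 4629 and 4238. The coding sequences of these neighbours are nearly identical, so the probe sets may read both transcripts. The Hspa1a set is not of shared sequence, nor is an Hspa1b set that read 6940, 8565 and 10392. Probe sequences were not compared, so the levels are not assigned to 1 gene. Hspa9, the mitochondrial Hsp70, read 22182, 20622 and 19962 on MOE430B, and 5154, 5586 and 6274 by a probe set on MOE430A, each about as far above its own limit (7.25 and 7.01 times). Hspa13, a microsomal Hsp70 relative, read 13550, 9679 and 9080 on MOE430B. Hspa14, which sits on ribosomes, was nearer the limit at 2310, 2091 and 1487 on MOE430A.

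The other 4 Hsp70 genes were not above it. Hspa1l, known mainly from testis, read 111, 23.9 and 74.5, at 0.0855 of the limit (limma, adjusted p = 6.83e-04), and Hspa2, also of testis, read 762, 539 and 966, crossing the limit in replicate 3 alone and not told apart from it (adjusted p = 0.547). The distant relatives Hspa12a and Hspa12b were below by limma (adjusted p = 0.0171 and 0.00918). Hspa12a read 336 and 807 in replicates 1 and 2 and 2735 in replicate 3, where alone it passed the limit of MOE430B. Its call was lost without replicate 1 (limma, adjusted p = 0.144), without the intensity trend (0.0863) and with the array median as limit (0.977). Hspa12b, known from endothelium, read 46.5, 372 and 201.

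Hsp110 proteins, the nucleotide exchange factors of Hsp70, were above for 3 of 3 genes, beside 36.1% of all genes. Hsph1, which is heat-inducible, read 27276, 27291 and 31478 (28682 ± 2421, SD, n = 3; 35.4 times the limit). Hspa4 read 7436, 8314 and 8348. Hspa4l stood nearer the limit, at 2477, 2159 and 2683, but all 5 of its probe sets were above on all arrays of their chip, which was so for no other member with 4 or more probe sets. On MOE430B its sets read 9019, 4506 and 10798, then 6753, 4727 and 6687, then 7481, 5040 and 5101. Replicate 2 was the lowest for all 5 sets, though in the last of these it lay close to replicate 3.

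The mitochondrial chaperonin is made of Hspd1 (Hsp60) and its lid Hspe1 (Hsp10), and both were above the limit, beside 36.1% of all genes. Hspd1 read 7964, 7149 and 8601, or 9.76 times the limit. Hspe1 read 4789, 6285 and 5653 by its set of shared sequence and 1940, 1969 and 1582 by the other. Their highest and lowest arrays differed: replicate 2 was lowest for Hspd1 and highest for Hspe1, within a spread of 728 and 751 (SD, n = 3).

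These 2 genes start back to back. The DNA between their starts is shown because it carries more 3-unit matches than the window of any other member. The other stretches were picked from Hsp70 and small heat shock genes that were above the limit and had a match. Hspa1b, Hspb6 and Hspb8, also above and with 1 match of 2 units each, are not shown, nor is Hspa14, above with 0. RefSeq promoter windows of build GRCm38.p6, from 250 bases before to 50 after a start, were at hand for 68 of the 84 genes. Hsp90aa1, Hspa8, Hspa9 and Hspa13, all above the limit, were not among these. The windows were searched for 2 facing units, GAANNTTC or TTCNNGAA, each of which reads the same on both strands, and for 3, GAANNTTCNNGAA or its reverse complement TTCNNGAANNTTC. A 3-unit match always holds 2-unit matches. Stretches upstream of the start are printed from 5' to 3' on the strand of the gene, with matched bases in capitals. They are Hspe1 (chr1:55087933-55088147, plus strand, from just past the Hspd1 start to the base before the Hspe1 start), Hspa1a (chr17:34972157-34972406, minus strand) and Hspb1 (chr5:135887669-135887918, plus strand).
Hspe1: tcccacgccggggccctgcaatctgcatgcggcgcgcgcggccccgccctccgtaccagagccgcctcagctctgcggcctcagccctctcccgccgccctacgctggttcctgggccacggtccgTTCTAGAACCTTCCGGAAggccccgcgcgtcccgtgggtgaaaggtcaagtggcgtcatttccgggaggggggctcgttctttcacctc
Hspa1a: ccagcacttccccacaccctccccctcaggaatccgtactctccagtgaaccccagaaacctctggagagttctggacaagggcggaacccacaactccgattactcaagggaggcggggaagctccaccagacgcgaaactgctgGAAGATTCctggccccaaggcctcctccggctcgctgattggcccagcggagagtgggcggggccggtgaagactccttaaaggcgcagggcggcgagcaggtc
Hspb1: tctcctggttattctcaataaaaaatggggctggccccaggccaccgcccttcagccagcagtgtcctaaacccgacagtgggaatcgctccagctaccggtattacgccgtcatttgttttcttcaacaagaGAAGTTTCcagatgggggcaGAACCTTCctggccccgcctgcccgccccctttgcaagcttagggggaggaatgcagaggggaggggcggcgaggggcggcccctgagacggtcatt

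In the Hspd1 and Hspe1 promoter windows, which share 285 bases on opposite strands, the capitals hold 3 overlapping 2-unit and 2 overlapping 3-unit matches, beginning at position -89 from the Hspe1 start and -144 from the Hspd1 start (the start counted as 0). Hspa1a has 1 match of 2 units at -104, and the Hspb1 window has 2, at -117 and -97. The Hspa1b window equals that of Hspa1a at 296 of 300 bases. The 68 genes have 88 windows, of which 24 (27.3%) held a 2-unit match, beside 15.1% of all 32851 windows, and 6 (6.82%) a 3-unit match, beside 0.603%. By gene, 22 had a 2-unit match, beside 4587 of all 27025 genes with a window, and 4 (5.88%) a 3-unit match, beside 0.662%. The 4 were Hspd1, Hspe1, Hsph1 and Dnajb6, of which the first pair share their sequence, and each was above the limit. Of all 88 measured genes with a 3-unit match, 33 (37.5%) were above. Among the 22 genes with a 2-unit match 16 were above, beside 33.7% of all measured genes with one, and among the 46 without 23 were, beside 37.7%. A match describes the letters and is not a bound site, and binding was not measured.

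CCT, the cytosolic chaperonin for actin and tubulin, is a double ring of related subunits. Its members were above the limit for 7 of 9 genes, beside 36.1% of all genes: Cct2, Cct3, Cct4, Cct5, Cct6a, Cct7 and Cct8. Cct3 read 35976, 38272 and 32369 (44.0 times the limit). Cct7 read 17416, 19263 and 17562, and Cct6a 14460, 11778 and 15288. By the set with the highest ratio, all 7 genes were told apart from the limit by limma and lay above it on every array. Cct3 and Cct4 each also had 2 sets below by limma. Another set of Cct8 was below as well, at 268, 141 and 167. Cct2 read 12234, 17807 and 14171, and Cct4 7990, 13932 and 9016, each highest in replicate 2. Cct5, with 1 probe set, read 8518, 7243 and 7868. Cct8 was nearest the limit, at 2755, 2769 and 3024, or 3.52 times. Tcp1, the CCT subunit that the naming rule does not reach, read 12236, 9745 and 12022. Of the 2 not above, Cct6b, the testis form of Cct6, read 118, 36.3 and 112 (limma, adjusted p = 9.25e-04, below), and Cct8l1 read 1926, 2404 and 2162 on MOE430B, under the limit on every array but not told apart from it (adjusted p = 0.166).

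**Figure D2:**
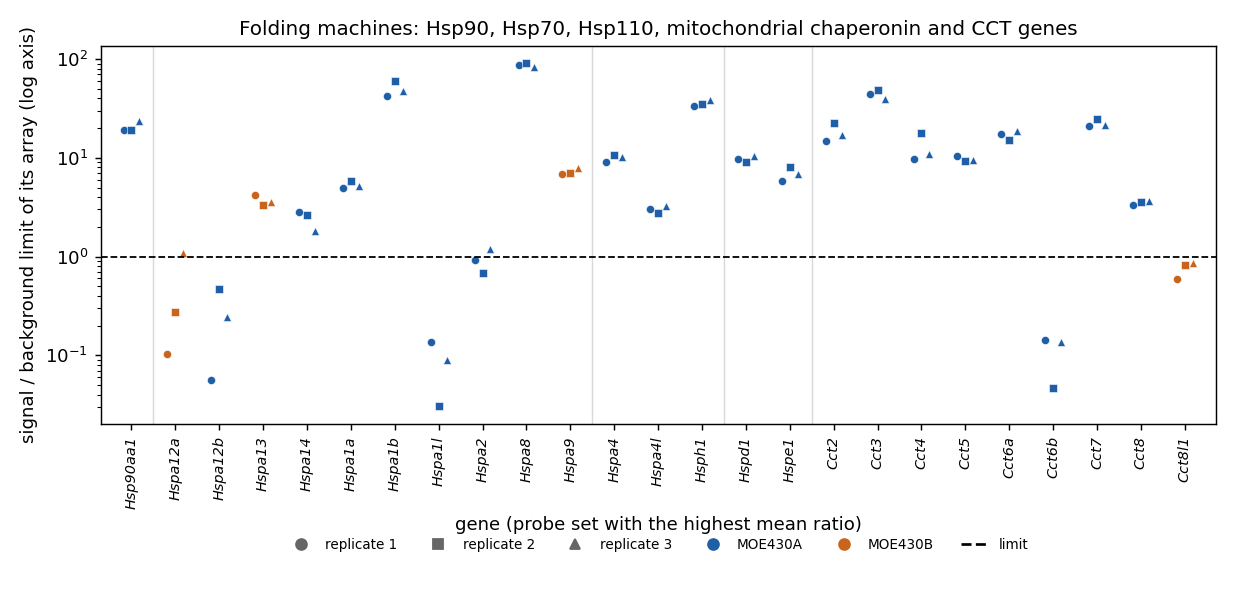
Signal divided by the background limit of its array (vertical axis, log scale) for the probe set of each gene with the highest mean ratio, with a symbol per replicate and a colour per chip, in the order Hsp90, Hsp70, Hsp110, mitochondrial chaperonin and CCT. The dashed line is the limit; the 7 CCT genes Cct2 to Cct8, Hsph1, Hspa8 and Hsp90aa1 lie above it on all 3 arrays, while Hspa1l, Hspa12b and Cct6b lie below 0.5 of it.

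Probe sets of the same gene could disagree. Of 52 member genes with 2 or more, 17 (32.7%) had probe sets both above and below the limit by limma, beside 31.1% of all such genes. For Cct4, 5 MOE430A sets were above, while another on that chip read 32.2, 14.1 and 49.4, at 0.0391 of the limit. Hspa8 had 3 sets above and 1 at 0.479 of the limit. Both genes thus have sets on either side by limma. Hspa4, Hspa13, Hspa14 and Dnajb6 each had 2 sets below beside those above. Cct3 had 4 sets above, 1 not told apart, and 2 below. Hspa9 had 2 above and 2 below on MOE430A, the latter at 0.204 and 0.0831, and 1 above on MOE430B. For Dnajc17 the chips disagreed: a MOE430B set read 40378, 34025 and 21417, or 10.8 times the limit, while both MOE430A sets lay at 0.107 and 0.0597 of theirs. That gene's call therefore rests on 1 probe set. Both chips carry probe sets for 20 members, of which 4 passed on both (Dnaja1, Dnaja2, Hspa4l, Hspa9), 9 on MOE430A only, 3 on MOE430B only (Dnajc17, Dnajc18, Dnajc21) and 4 on neither.

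**Figure D3:**
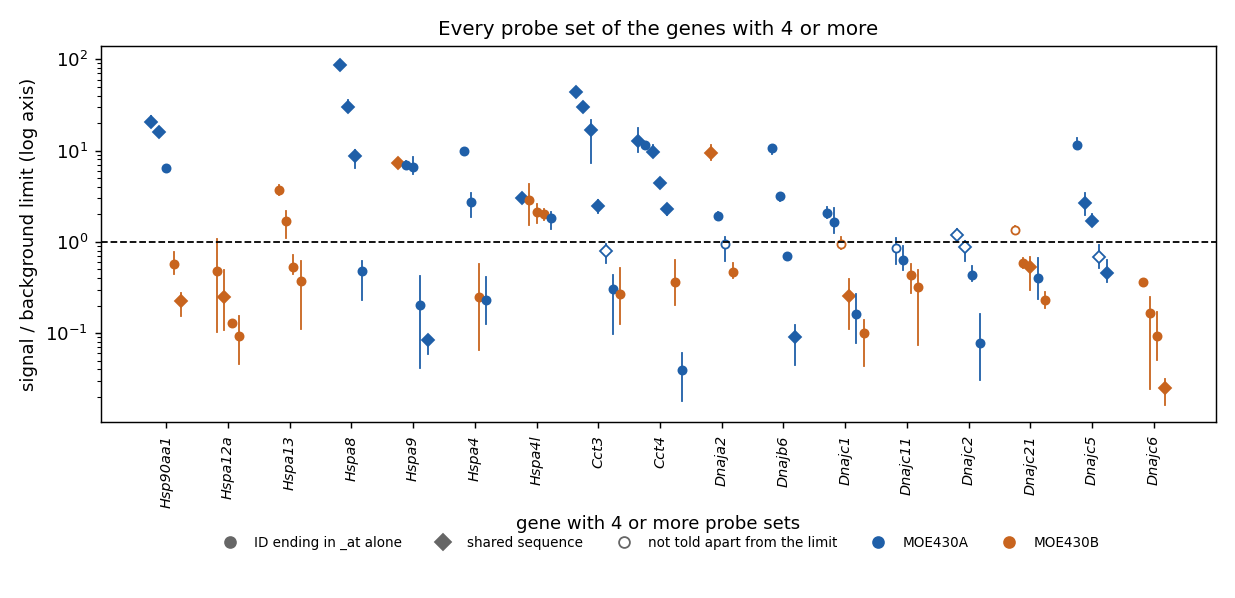
Mean ratio of signal to limit (log axis) of every probe set of the members with 4 or more; vertical lines span the 3 arrays, diamonds mark sets of shared sequence, open symbols sets not told apart from the limit, and colours the chip. Most genes straddle the dashed limit, whereas all 5 sets of Hspa4l lie above it and all sets of Hspa12a, Dnajc6 and Dnajc11 below it by their means.

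J proteins bring substrates to Hsp70 and trigger its ATPase, and 25 of 41 were above the limit, beside 36.1% of all genes. Of the A family, built like bacterial DnaJ, Dnaja1 read 12418, 11369 and 11111 (14.4 times the limit), and Dnaja2 read 30395, 22915 and 28878 on MOE430B (9.52 times). Dnaja3, the mitochondrial member, was above on all arrays at 916, 1038 and 959 but not told apart from the limit (limma, adjusted p = 0.136). Its other 2 sets were below by limma. Dnaja4 read 849, 1081 and 776 and was above on 2 arrays.

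In the B family 6 of 11 were above, beside 36.1% of all genes. Dnajb1 (Hsp40), the partner of inducible Hsp70, had nearly equal values of 10899, 10994 and 10997 (10963 ± 55.9, SD, n = 3; 13.6 times the limit). Its other probe set read 634, 912 and 905, not told apart from the limit. Dnajb6, which keeps aggregation-prone proteins soluble, read 9425, 7148 and 9226. Dnajb4 read 2496, 2613 and 3623, and Dnajb2 1670, 1987 and 2716, each highest in replicate 3 and above on every array. Dnajb12, anchored in the endoplasmic reticulum membrane, read 1215, 1397 and 1442. Dnajb5 was above on all arrays at 937, 979 and 1190, yet not told apart by limma (adjusted p = 0.0599). Dnajb3, known from testis, read 174, 26.2 and 240, and was below by limma at 0.179 of the limit. Dnajb13, of the sperm flagellum, and Dnajb7 were below as well, at 0.149 and 0.284. Dnajb8 read 737, 752 and 974, at the limit (adjusted p = 0.961), and Dnajb14 read 2325, 1875 and 1687 on MOE430B (adjusted p = 0.0760).

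The C family is a mixed group with the J domain in many settings. In it 16 of 26 were above, beside 36.1% of all genes, and 11 of them by limma. The 3 with the highest ratio to their own limit were Dnajc8, Dnajc10 and Dnajc5. Dnajc8, a nuclear protein of the splicing machinery, read 13853, 18095 and 12395. Dnajc10 (ERdj5), a reductase of the endoplasmic reticulum, read 12274, 14276 and 12311. Dnajc5, the cysteine string protein of secretory vesicles, read 8774, 10657 and 8633. All 3 were highest in replicate 2 and far from the limit on every array. Dnajc7, a cytosolic TPR co-chaperone of Hsp70 and Hsp90, read 3554, 3803 and 2909, and Dnajc13, of endosomes, 2557, 2206 and 2206. Dnajc1 (1683, 1884 and 1490) belongs to the endoplasmic reticulum, and Dnajc30 (1748, 1781 and 1237) and Dnajc15 (1350, 1047 and 1307) to mitochondria. Dnajc9, a histone chaperone, read 1570, 1183 and 893, the last just over the limit. Its limma call (adjusted p = 0.0233) was lost without replicate 1 (0.145) or replicate 2 (0.0823). The call was also lost without the intensity trend (0.0839) and with the 99th percentile as limit (0.804).

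Several C members lay so near the limit that replicate spread decides the call. Dnajc12 read 885, 917 and 981, and Dnajc2, which sits on ribosomes, read 943, 812 and 1139. On MOE430B Dnajc21 read 3979, 3746 and 3849, and Dnajc25 read 4025, 3989 and 2802. These 4 were above on all arrays and not told apart by limma. The other 4 sets of Dnajc21 were below by limma, at 0.229 to 0.594 of their limits, as were 2 of the 4 sets of Dnajc2. Dnajc14 was called through a set at 840, 943 and 951, whereas its set with the highest ratio read 740, 1013 and 1282 and missed the limit in replicate 1. Dnajc18 passed both rules on MOE430B, at 4724, 4262 and 4007 (limma, adjusted p = 0.0141). The limma call of Dnajc18 was lost without the intensity trend (0.131) and with the 99th percentile as limit (0.514). With that limit its log2(signal / limit) turned to -0.11. Dnajc4 (756, 1043 and 1098) was above on 2 arrays. Dnajc24 (577, 1092 and 601), Dnajc11 (726, 860 and 471) and Dnajc5g (1673, 3382 and 1512 on MOE430B) were above on replicate 2 alone, and Dnajc5b (421, 73.0 and 853) on replicate 3 alone. Dnajc28 read 583, 771 and 655 and was under the limit throughout, though not told apart from it (adjusted p = 0.210). The lowest ratios belonged to Dnajc22, Dnajc16 and Dnajc6, at 0.294, 0.319 and 0.362 of the limit on MOE430B. Dnajc6 is auxilin, the neuronal clathrin uncoating factor, and Dnajc27, at 0.570 on MOE430A, was below by limma too (adjusted p = 0.0170). The call of Dnajc27 was lost without replicate 1 (0.0624), without replicate 3 (0.0649) and with the array median as limit (0.236).

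**Figure D4:**
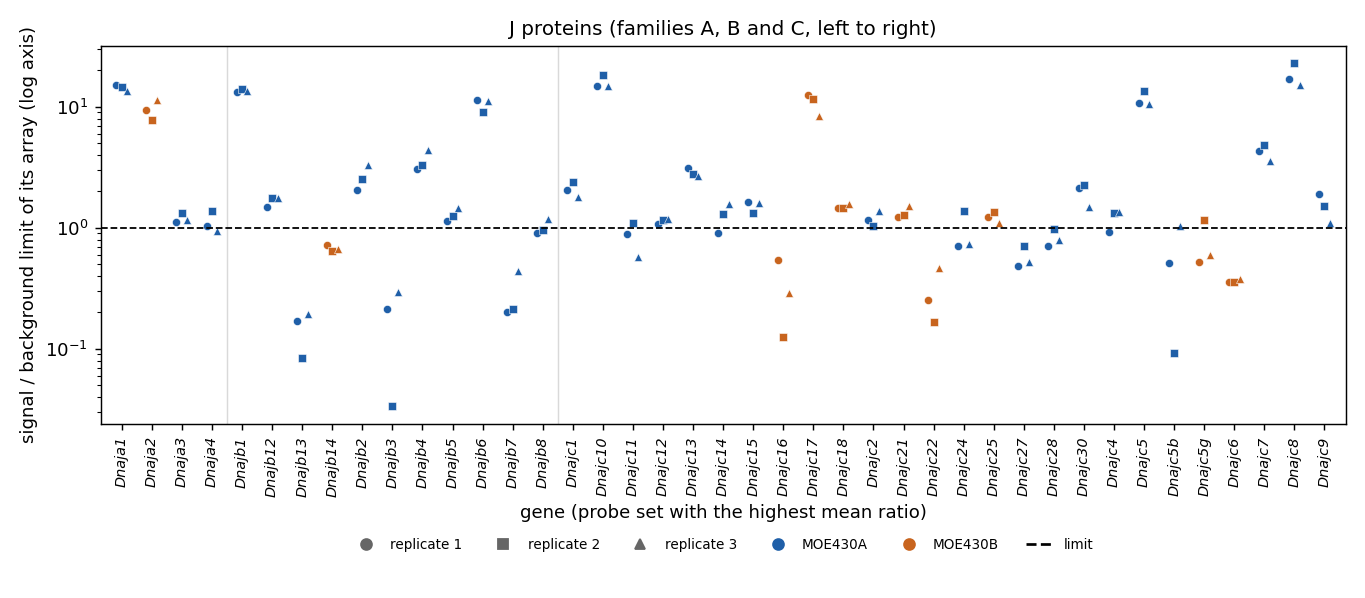
Signal divided by the background limit of its array (vertical axis, log scale) for the probe set of each J protein gene with the highest mean ratio, families A, B and C from left to right, with a symbol per replicate and a colour per chip. Dnaja1, Dnajb1, Dnajc10, Dnajc5 and Dnajc8 lie above 10 times the limit on every array, and a group that includes Dnaja3, Dnajb8 and Dnajc4 lies near the dashed line.

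Small heat shock proteins hold unfolded chains without ATP, and several are typical of striated muscle. Of the 7 genes left when Hspb11 is set aside 3 were above the limit, beside 36.1% of all genes. Hspb8, which works with Bag3 in selective autophagy, read 4687, 5013 and 4930 (4876 ± 170, SD, n = 3; 6.03 times the limit). Hspb1 (Hsp25) read 3350, 2318 and 2533, highest in replicate 1 and above in all. Hspb6 (Hsp20) read 3446, 3808 and 3531 on MOE430B and was not told apart from the limit (limma, adjusted p = 0.185). The other muscle members were not above: Hspb2 read 774, 653 and 437, Hspb7 743, 512 and 884, and Hspb3 187, 53.1 and 60.9. Hspb3 was below the limit by limma (adjusted p = 0.00118), whereas Hspb2 and Hspb7 were not told apart from it (0.131 and 0.353). Hspb9, a testis gene, read 61.4, 451 and 65.5 on MOE430B. Hspb11, the intraflagellar transport subunit, read 887, 1047 and 687, above on 2 arrays.

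Bag proteins release substrate from Hsp70, and 2 of 6 were above, a share near the 36.1% of all genes. Bag1 read 3406, 3451 and 3434 (3430 ± 22.8, SD, n = 3), and Bag3, the partner of Hspb8, read 1937, 1967 and 1777 (2.34 times the limit; limma, adjusted p = 3.94e-05). Bag2 (698, 955 and 742) was above in replicate 2 alone and Bag5 (222, 591 and 931) in replicate 3 alone. Bag4 read 700, 733 and 693, under the limit on all arrays and not told apart from it (adjusted p = 0.334). Bag6 was below, at 89.4, 160 and 140.

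None of the 3 heat shock factor genes measured (Hsf2, Hsf4, Hsf5) was above the limit, beside 36.1% of all genes, nor was Hsf2bp, which the naming rule takes in. Hsf2, a factor active in development, read 166, 33.6 and 105 on MOE430A, below the limit by limma (adjusted p = 0.00154). Its MOE430B set, at 1643, 2188 and 1624, was under the limit on every array but barely past the threshold (limma, adjusted p = 0.0496). That call was lost without replicate 1, 2 or 3 (adjusted p = 0.171, 0.0860 and 0.0857) and without the intensity trend (0.104), and the log2(signal / limit) turned to 0.97 with the array median as limit. Hsf4, known from the lens, read 64.5, 145 and 262. Hsf5 (1518, 1945 and 2759) passed the MOE430B limit in replicate 3 alone, and Hsf2bp (4162, 1973 and 2717) in replicates 1 and 3. A level under the limit does not show that a transcript is missing.

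**Figure D5:**
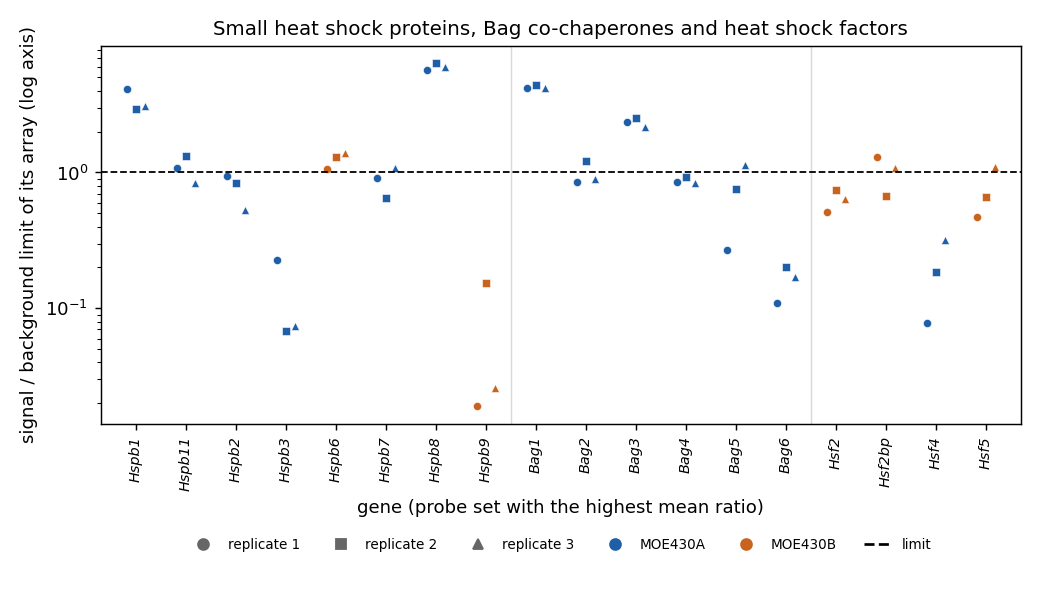
Signal divided by the background limit of its array (vertical axis, log scale) for small heat shock, Bag and Hsf genes, drawn at the probe set with the highest mean ratio, with a symbol per replicate and a colour per chip. Hspb1, Hspb8, Bag1 and Bag3 lie above 2 times the limit on every array; no Hsf gene lies above the dashed line on all 3.

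Co-chaperones outside the naming rule were above the limit for 23 of 27 measured genes of a list of 30, beside 36.1% of all genes. The list also holds Tcp1, Cryab and Serpinh1, which are chaperones themselves. It was chosen with earlier results of these data known, so its share is a description and not a test. Serpinh1 (Hsp47), the collagen chaperone of the endoplasmic reticulum, read 21285, 23172 and 22809. Chordc1, a partner of Hsp90, read 13705, 12470 and 13931. Other Hsp90 partners above the limit were Ahsa1 (3832 ± 374, SD, n = 3), Cdc37 (3476 ± 334), Fkbp5 (1814 ± 211) and Stip1 (1677 ± 187), the last of which links Hsp90 to Hsp70. Prefoldin, which passes actin and tubulin chains to CCT, was above for 6 of 6 measured subunits, Vbp1 at 3385 ± 700 among them. Cryab, a small heat shock protein of muscle and lens, read 2496, 4414 and 2824, highest in replicate 2. The 4 not above were Fkbp4, Sgtb, Ttc4 and Unc45b, and Unc45b, the myosin chaperone of striated muscle, read 1439, 1562 and 2345 on MOE430B. The rest of the list was not analysed here.

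The spread between replicates is given for member sets above the limit on all 3 arrays, which leaves out sets with a low array, such as that of Hspa12a. Of the 76 MOE430A member sets above the limit, the highest array exceeded the lowest by a median of 1.28-fold (1.01 to 2.82), and by more than 2-fold for 1 set. That set, 1 of the 7 of Cct3, read 17136 and 16956 in replicates 1 and 2 and 6086 in replicate 3. The other 3 Cct3 sets above the limit showed no such drop, while a set below it read 314, 342 and 79.7. On MOE430B the median span of the 13 sets was 1.43-fold (1.06 to 2.40, the highest for Hspa4l). The median coefficient of variation was 13.2% on MOE430A, beside 12.9% of all single-gene sets above the limit, and 19.0% on MOE430B, beside 15.6%. On MOE430B, 11 of 13 member sets were highest in replicate 1, whose array came from another chip lot than those of replicates 2 and 3. All single-gene sets above the limit there were also highest in it for 56.2%, and the part of the lot was not tested. That pattern holds for the signal only: by ratio to the limit of each array, replicate 1 was highest for 4 of the 13 (30.8%, beside 22.7% of all) and replicate 3 for 8 (61.5%, beside 59.8%). On MOE430A replicate 1 had the highest signal for 19 of 76 members (25.0%, beside 34.3%) and the highest ratio for 17 (22.4%, beside 30.9%).

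Whether a gene differed between replicates was tested with limma on 618 genes read above the mean limit on both chips, with the chip as covariate. Among 6 chaperone genes in this test 0 were called and 0 had an unadjusted p under 0.05, beside 1.13% called of all genes. An ordinary F-test per gene called 0 as well, with 1 unadjusted (Hspa4l). Hspa4l came nearest, with log2 levels of 11.02, 10.59 and 11.04 on MOE430A and 12.91, 12.21 and 12.81 on MOE430B, replicate 2 being lowest by 0.56 on average (limma, adjusted p = 0.498). Dnaja1, Dnaja2, Dnajc8, Dnajc18 and Hspa9 spanned 0.10 to 0.34 (adjusted p of 0.892 to 0.978). The test takes arrays of the same replicate number on both chips as the same sample. That pairing is not shown: on the shared probe sets, deviations of same-numbered arrays correlated at -0.01, 0.44 and 0.10. With 2 arrays per replicate the test also has little precision, and a p above the threshold does not show that replicates were equal.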

How the data were processed

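The deposited values are MAS5 signal intensity, made by the authors per the submitters' processing notes (version not given in the sources used here), on a linear scale. Each array, and each chip separately, had been scaled to the same trimmed mean. Probe sets were named through GEO's platform annotation: of 22690 on MOE430A and 22575 on MOE430B, 20393 and 14674 had 1 symbol, 691 and 245 several and 1606 and 7656 none. Symbols of genes other than members were brought up to date by Entrez number (RefSeq, GRCm38.p6, holding 20364 and 14499 of them). Control probe sets were left out.

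The background limit came from 149 reference probe sets on MOE430A and 44 on MOE430B (for example odorant and vomeronasal receptors, defensins, lens gamma crystallins and placental prolactins). Limma 3.58.1 in R 4.3.3 tested log2(signal / limit) per chip, two-sided, and replicates by a moderated F-test, with an intensity trend, Benjamini-Hochberg adjustment over all features fitted and a threshold of 0.05. The limit was taken as known. Both tests were tried on simulated data, in which most probe sets lay at the limit and replicate numbers paired the chips. In these data most probe sets lay off the limit and the pairing is not shown. The trial therefore does not show how the tests perform here. Only 3 arrays per chip limit the precision. A gene's stated values are those of its probe set with the highest mean ratio to the limit of its own arrays, unless another is named. By rule, array values are given for the Hsp, Cct, Bag and Hsf genes, Dnaja1 to Dnaja4, Dnajb1 to Dnajb6 and members within 0.67 to 1.5 times the limit, and the J proteins with extreme ratios are named. Other genes, other probe sets and the promoters shown were chosen after their values were seen. The members and lists were chosen with earlier results of these data known. Alternatives changed the limit, the reference genes, the normalization, the probe sets, the replicates and the variance model. Tables and plots were made in Python 3.11.15 (matplotlib 3.10.9, scipy 1.17.1, pandas 2.3.3, numpy 2.4.6). Scanner settings were read for batches alone.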

Additional observations from a re-analysis of the deposited data

How the results depend on the processing

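With 49 of 84 chaperone genes above the limit as reported, the count ran from 37 (limit at the 99th percentile) to 63 (array median as limit) over the alternatives tried. Without 1 replicate it was 50 to 51. A count of sets or genes above on all remaining arrays can only stay or rise when an array is left out, so it is no check. Without probe sets of shared sequence, 40 member probe sets of MOE430A were above on all arrays and 36 by limma, out of 88 left. On MOE430B the 99th percentile left 7 above on all arrays and 6 by limma, and the array median gave 29 and 24. Without 1 replicate the counts by limma were 67 to 69 on MOE430A and 9 to 10 on MOE430B, and those on all remaining arrays 76 to 81 and 13 to 15. For 47 of the 84 genes the limma call of the stated probe set was the same under each alternative that could be run on it; leaving out shared sequence could be run for 62. The co-chaperone count ran from 17 (without shared sequence) to 26 (array median). No chaperone gene differed between replicates under any of the 8 alternatives of that test, with 20 genes in it when dim probe sets were kept. Of single genes, 3 changed the sign of their log2 signal over limit after a call. Dnajc18 at -0.11 with the 99th percentile (limma, adjusted p = 0.514) was then not told apart from the limit. The same held for Dnajc6 at 0.19 with the array median (0.673). Only Hsf2, at 0.97 with the array median (0.0139), was then called on the other side. The replicate block left the chip difference at 99 of 100 shared probe sets, and the replicate numbers of the chips are not shown to pair the arrays (correlations of deviations of -0.01, 0.44 and 0.10). Centring each array on the shared probe sets gave 0, as centring removes the shift, and 97 to 98 differed without 1 replicate. A probe set within the replicate spread of the limit cannot be called either way with 3 arrays.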
